A study of Mus musculus with 11 samples.

Results

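The collagen gene family was described in colon RNA of mice with and without a deletion of Tfam in T cells. Members were the protein-coding genes whose mouse symbol reads Col, a number, the letter a and a number in the GENCODE annotation of the genome build GRCm39. There were 44 such genes, of which 42 had a row in the deposited table of 22836 genes and 36 averaged 10 or more normalized counts across the 11 libraries, the limit for testing, among 16781 tested genes. This rule reads names only, while the family itself was taken up with earlier results of these data known. The levels of Col10a1 and Col19a1 were not analysed here, and only their upstream sequences were searched. A further 6 members lay under the limit, namely Col2a1, Col4a3, Col6a6, Col9a1, Col17a1 and Col26a1.

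The study asked how T cells shape the state of the colon in mice with features of ageing. The 3 control mice were Tfam fl/fl, with both alleles of the mitochondrial transcription factor gene Tfam flanked by recombination sites and no Cre recombinase. The 3 KO mice were Tfam fl/fl Cd4 Cre and received no cells, and the 5 transferred mice had the same genotype, Tfam fl/fl Cd4 Cre, and had been given CD4 T cells from young Ly5.1 donors. Cre driven by Cd4 deletes in CD4 T cells and also in CD8 T cells, which pass through a stage with both coreceptors. The sample labels give no age. They number libraries without naming animals, and the p-values therefore rest on the variation among these libraries, which may be in part technical.

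Collagens are chains that wind around each other into rod-like molecules. Fibrillar collagens, mainly types I, III and V, form the load-bearing fibres of the submucosa and the muscle coat of the gut. Type IV collagen is the mesh of the basement membranes under epithelium and around muscle, vessels and nerves, type VI collagen forms beaded filaments close to cells, and other types sit on fibres, join layers or span cell membranes. Fibroblasts make most of the fibrillar chains, whereas smooth muscle, endothelium, glia and epithelium also make chains of their own basement membranes.

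Each library held 18214741 to 19178986 reads in genes, as the step sizes of its normalized counts gave them back, so a gene at 10 normalized counts rests on about 10 reads. Tfam itself, measured over all cells of whole colon together, had 1083, 977 and 1018 normalized counts in the control libraries, 1054, 1102 and 1040.3 in the KO libraries and 865, 1090.5, 1045, 1017 and 1086 in the transferred libraries. Its KO and control libraries overlapped (limma, 0.06 on the log2 scale for KO against control, adjusted p = 0.678), so this bulk level does not check the deletion in T cells. Markers of the colon epithelium, such as Epcam and Cdx2, were high in every group. Transferred replicate 5 stood apart from transferred replicates 1, 3 and 4, with a chi-square of 89.4 to 111 per gene against them. Against transferred replicate 2 it had 40.5, inside the 21.9 to 50.4 of the other pairs within a group. The share of counts in mitochondrial genes was 4.63 to 6.73% in control, 2.55 to 3.44% in KO and 3.84 to 4.82% in transferred libraries.

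Of the 36 tested collagen genes, 19 were lower in KO than in control colon, 2 were higher and 15 were not called (limma, Benjamini-Hochberg adjusted p under 0.05 over all tested genes). The 19 include Col4a4, which reached the limit for testing only through the control libraries, and without it 18 of 35 were lower. Over all tested genes 45.5% were called, 22.9% as lower and 22.7% as higher, so the 52.8% of collagen genes called lower stood beside a background of 22.9% and the 5.56% called higher beside 22.7%. The median log2 fold change was -0.81 over the tested collagen genes and 0.02 over all tested genes. The 3 KO libraries were all below the 3 control libraries for 24 collagen genes and all above for 3, against 27.9% and 29.0% of all tested genes. These are changes in the RNA of whole tissue, in which fewer cells of a type and less RNA per cell cannot be told apart.

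After the transfer, 16 of the 36 genes were higher than in KO colon and 1 was lower, with a median log2 fold change of 0.68 (-0.02 over all tested genes). Without Col4a4, 15 of 35 were higher and the median was 0.63. Over all tested genes 31.2% were called, 17.0% as higher and 14.2% as lower. The transferred libraries were all above the KO libraries for 16 collagen genes and all below for 1 (17.6% and 16.6% of all tested genes). This comparison and that of KO with control use the same KO libraries, so they are not independent of each other. Without transferred replicate 5, 18 were higher and 1 was lower.

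Between transferred and control colon, 0 of 36 collagen genes were called with limma, against 1.6% of all tested genes (1.14% as higher and 0.453% as lower), and 10 had an unadjusted p under 0.05. Of the 10 with limma, Col6a4 was higher and the others were lower in transferred colon. edgeR also called 0, with 8 at an unadjusted p under 0.05, and DESeq2 called 1, Col6a4, with 10. The share of all tested genes at an unadjusted p under 0.05 was not taken, so these and later such counts have no background. The median log2 fold change was -0.21 (-0.01 over all tested genes). The transferred libraries were all below the control libraries for Col4a5, Col5a3, Col8a2 and Col13a1 and all above for Col6a4, 4 and 1 of 36 genes, where 5.49% and 6.09% of all tested genes did so. A p that misses the threshold does not show that a gene had the same level in both groups. For the 10 genes with limma, the 95% confidence interval, not adjusted over genes, left out 0. They included every tested type IV gene. On the log2 scale the interval was -0.60 to -0.01 for Col4a1, -0.69 to -0.006 for Col4a2 and -1.39 to -0.03 for Col4a6. It was -2.05 to -0.18 for the scarce Col4a4, and lay above 0 for Col6a4, at 0.24 to 1.05. Intervals of this comparison for Col4a5 and Col6a1 are given with these members.

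**Figure D1:**
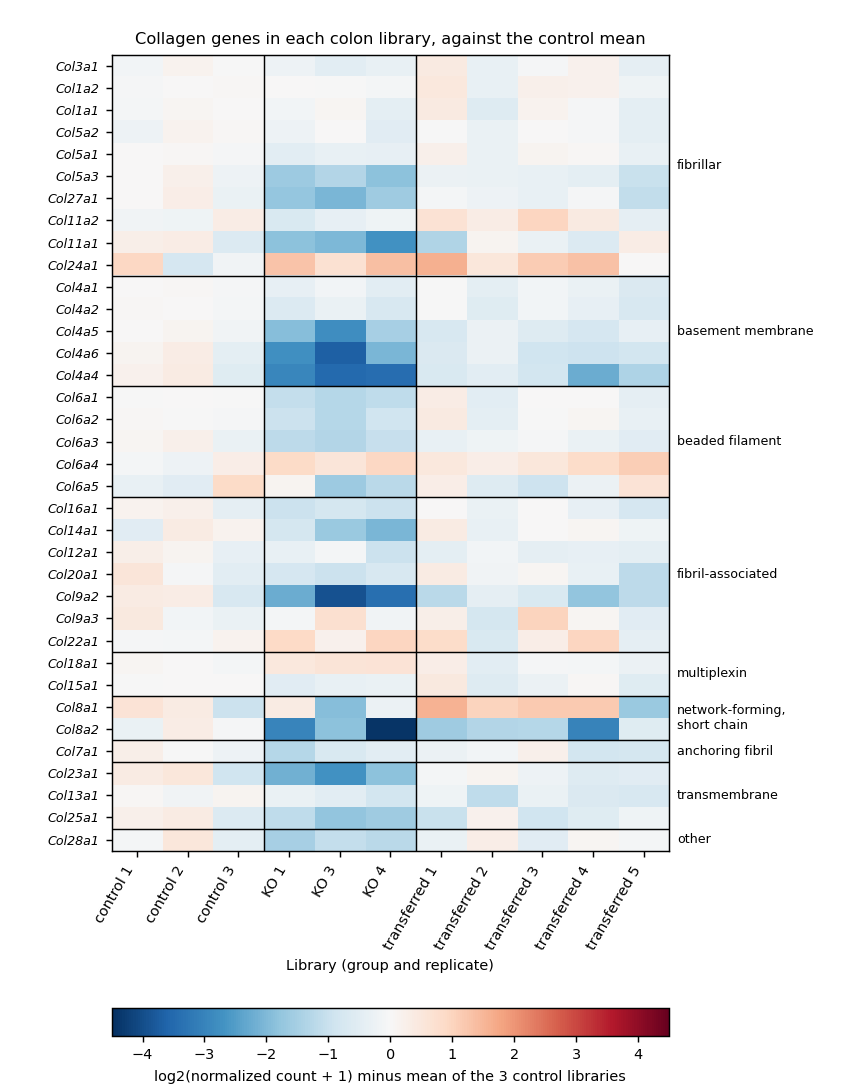
Each row is 1 of the 36 tested collagen genes, grouped by class and ordered within a class by level per length, and each column is 1 library. Colour is log2(normalized count + 1) minus the mean of the 3 control libraries, and the KO columns are blue for most rows, among the deepest Col4a6, Col9a2 and Col8a2 and the scarce Col4a4, while the rows of Col1a1 and Col1a2 stay near white in them. Col6a4, Col18a1, Col22a1 and Col24a1 are red in all 3 KO columns, and Col6a4 and Col18a1 are the called genes among these.

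Of the 11 fibrillar collagen genes 10 were tested, and 4 of these, Col5a1, Col5a3, Col27a1 and Col11a1, were lower in KO than in control colon, 0 were higher and 6 were not called. The counts of this and each later class stand beside 22.9% of all tested genes called lower and 22.7% called higher. Per kb of transcript, Col3a1 had the highest level of the whole family in control colon, with a mean of 1156 normalized counts per kb, followed within the class by Col1a2 with 608 and Col1a1 with 411.

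Col1a1, which encodes the major chain of type I collagen, had 2269, 2572 and 2466 normalized counts in the control libraries, 2217, 2579.8 and 1794 in the KO libraries and 3200.0, 1614, 2683, 2329 and 1775 in the transferred libraries. The 3 groups overlapped, and the log2 fold change between KO and control was -0.16 with a 95% confidence interval of -0.66 to 0.34 (adjusted p = 0.589). Its partner chain Col1a2 had 3100.0, 3326 and 3344 normalized counts in the control libraries, 3274, 3182 and 3086 in the KO libraries and 4575, 2584, 3850.2, 3749 and 2855 in the transferred libraries. That is an interval of -0.42 to 0.35 on the log2 scale between KO and control, around -0.03 (adjusted p = 0.892).

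Col3a1, the type III chain that forms the fine fibres of distensible organs, had 5913, 7084 and 6303 normalized counts in the control libraries, 5541, 4589 and 5086 in the KO libraries and 8389.7, 5073, 6175, 7351 and 4846 in the transferred libraries. All 3 KO libraries were below all 3 control libraries, but the difference was not called (log2 fold change -0.34, standard error 0.19, adjusted p = 0.162), and transferred libraries lay on both sides of the control libraries. In a fit of only the KO and control groups, 1 of the 22 alternatives to which each test was put, Col3a1 was called as lower (adjusted p = 0.0456). Col5a2, a type V chain that helps to set the width of type I fibres, was not called either (log2 fold change -0.25, 95% confidence interval -0.60 to 0.10).

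Col5a1, the common type V chain, had 1013, 1026 and 959 normalized counts in the control libraries, 718, 783 and 777 in the KO libraries and 1165, 809.8, 1093, 1036 and 801 in the transferred libraries. It was lower in KO colon by a small amount (log2 fold change -0.40, standard error 0.14, adjusted p = 0.04). Of the 22 alternatives, 11 used another setting and 11 each left out 1 library. The call was lost in 9 of them, including without any 1 of the control or KO libraries and without transferred replicate 4, where the adjusted p ranged from 0.0501 to 0.104. Between transferred and KO colon Col5a1 was not called (log2 fold change 0.35, limma adjusted p = 0.0546), but was called as higher in 5 of the 22 alternatives. Col5a3, a type V chain of restricted expression, had 674, 792 and 572 normalized counts in the control libraries, 216, 271 and 186 in the KO libraries and 556, 544, 531, 493 and 332 in the transferred libraries. The KO libraries lay below all others, with a log2 fold change of -1.60 against control (standard error 0.21, adjusted p = 0.00015) and of 1.12 for transferred against KO (adjusted p = 0.00145).

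Col27a1, a fibrillar collagen first known from cartilage, had 453, 545 and 361 normalized counts in the control libraries, 133, 108 and 148 in the KO libraries and 419.9, 377, 357, 429 and 209 in the transferred libraries. It fell in KO colon (log2 fold change -1.79, standard error 0.26, adjusted p = 0.000255) and was higher after the transfer (log2 fold change 1.43, standard error 0.23, adjusted p = 0.00116), with transferred replicate 5 lowest of its group. Col11a1, a type XI chain that copolymerizes with type V, was scarce, with 41.4, 43.7 and 22.1 normalized counts in the control libraries, 8.81, 7.75 and 4.38 in the KO libraries and 12.8, 37.2, 27.5, 21.9 and 43.8 in the transferred libraries. Its log2 fold change was -2.19 between KO and control (adjusted p = 0.00236) and 1.83 between transferred and KO (adjusted p = 0.00615).

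Col11a2 was not called between KO and control (log2 fold change -0.41) and was higher after the transfer than in KO colon (log2 fold change 0.80, standard error 0.28, adjusted p = 0.0494), a call lost in 14 of the 22 alternatives, among them without any 1 library other than transferred replicate 5 (adjusted p = 0.0508 to 0.15). Col24a1 had 3.98 to 15.1 normalized counts in control, 12.6 to 20.8 in KO and 7.67 to 24.6 in transferred libraries and was not called (log2 fold change 1.11, standard error 0.50, adjusted p = 0.0907), but was higher in KO colon without control replicate 1 (adjusted p = 0.0268). Col2a1, the chain of cartilage fibres, reached at most 2.21 normalized counts in any library.

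**Figure D2:**
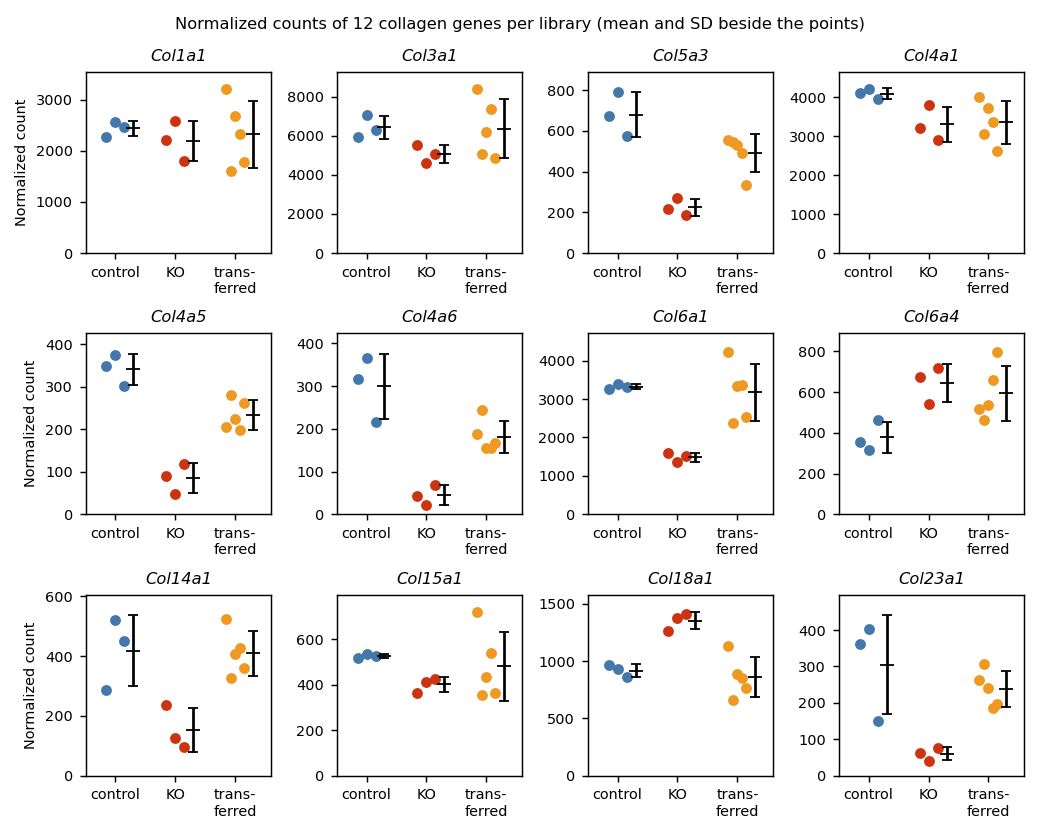
Normalized counts (linear axes from 0) of 12 collagen genes in the 3 control, 3 KO and 5 transferred libraries, each point a library, with the group mean and SD beside the points. The KO points of Col1a1 overlap with the control points, those of Col4a5, Col4a6, Col6a1 and Col23a1 lie under all others, and those of Col18a1 lie above all others.

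Of the 6 genes of the basement membrane class 5 were tested, and 4 were lower in KO than in control colon and 0 higher. Without Col4a4, which reached the limit for testing only through the control libraries, 3 of 4 were lower. Col4a1 and Col4a2 encode the chains of the common type IV network, and their genes lie on chromosome 8 with start sites 317 bases apart on opposite strands. Col4a1 had 4112, 4212 and 3954 normalized counts in the control libraries, 3199, 3798 and 2908 in the KO libraries and 3998, 3049, 3724, 3352 and 2629 in the transferred libraries. It was below control in all 3 KO libraries, but was not called (log2 fold change -0.32, standard error 0.15, adjusted p = 0.104). Col4a2 had 3644, 3559 and 3231 normalized counts in the control libraries, 2266, 2837 and 2127 in the KO libraries and 3447, 2409, 3226, 2663 and 2122 in the transferred libraries. It was lower in KO colon (log2 fold change -0.54, standard error 0.17, adjusted p = 0.0256), a call lost in 5 of the 22 alternatives. These were a rule with a minimum fold change (over 0.6 in size on the log2 scale, with an unadjusted p under 0.05) and the fits without control replicate 1 or 2 or KO replicate 1 or 4, with adjusted p = 0.069 to 0.0927 in the latter. Between transferred and KO colon neither gene was called. The log2 fold change was 0.01 for Col4a1 (limma adjusted p = 0.946) and 0.19 for Col4a2 (limma adjusted p = 0.379).

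Col4a5 and Col4a6 encode chains that occur together in basement membranes, among them that of smooth muscle, and lie head to head on the X chromosome with start sites 1282 bases apart. Col4a5 had 348, 374 and 301 normalized counts in the control libraries, 89.1, 48.4 and 119 in the KO libraries and 205, 279.7, 225, 198 and 262 in the transferred libraries. Every KO library lay under every other library, and every transferred library lay between the KO and the control libraries. The log2 fold change was -2.07 for KO against control (standard error 0.27, adjusted p = 0.000154) and 1.52 for transferred against KO (standard error 0.24, adjusted p = 0.00113). Against control the transferred group had -0.55 (95% confidence interval -1.08 to -0.02, adjusted p = 0.25).

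Col4a6 had 316, 365 and 217 normalized counts in the control libraries, 42.1, 22.3 and 69.0 in the KO libraries and 187, 244, 155, 154 and 166 in the transferred libraries. It fell in KO colon (log2 fold change -2.83, standard error 0.35, adjusted p = 0.000105) and was higher after the transfer (log2 fold change 2.12, standard error 0.31, adjusted p = 0.00075). Col4a4, which with Col4a3 forms a network known best from the kidney, had 24.5, 27.8 and 14.3 normalized counts in the control libraries, 1.96, 0.969 and 1.10 in the KO libraries and 12.8, 15.1, 11.8, 3.81 and 7.67 in the transferred libraries. It averaged 11.1 normalized counts over all libraries and 6.89 over the KO and transferred libraries, so it reached the limit for testing only through the control libraries. Its log2 fold change of -3.28 is given as a description. The KO libraries held about 1 or 2 reads each, and the value depends on the pseudocount of 1. Col4a3, whose start lies 103 bases from that of Col4a4, reached at most 8.48 normalized counts.

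The 250 bases upstream of the start of the canonical transcript are shown for Col4a5 and Col4a6, the head-to-head pair of which both genes were lower in KO colon, and for Col1a1 and Col3a1, fibrillar genes not called in the fit of all 3 groups. They were read from the GRCm39 genome 5′ to 3′ on the strand of the gene and hold no annotated exon. Capitals mark the motifs searched on both strands, namely CCAAT (bound by NF-Y), GGGCGG (the GC box), TATAAA (the TATA box) and the CArG box (bound by serum response factor). The windows are chrX:140258104-140258353 on the plus strand for Col4a5, chrX:140257073-140257322 on the minus strand for Col4a6, chr11:94826800-94827049 on the plus strand for Col1a1 and chr1:45350448-45350697 on the plus strand for Col3a1.
Col4a5: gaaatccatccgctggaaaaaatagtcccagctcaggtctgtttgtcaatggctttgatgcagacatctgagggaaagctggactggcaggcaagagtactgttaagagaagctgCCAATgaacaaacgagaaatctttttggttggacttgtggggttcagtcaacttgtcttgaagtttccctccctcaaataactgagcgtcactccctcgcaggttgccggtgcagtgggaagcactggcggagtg
Col4a6: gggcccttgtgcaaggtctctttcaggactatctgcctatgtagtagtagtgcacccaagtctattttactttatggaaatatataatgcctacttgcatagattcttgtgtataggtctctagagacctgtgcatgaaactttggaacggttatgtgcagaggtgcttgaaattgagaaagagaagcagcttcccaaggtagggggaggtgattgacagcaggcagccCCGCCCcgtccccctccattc
Col1a1: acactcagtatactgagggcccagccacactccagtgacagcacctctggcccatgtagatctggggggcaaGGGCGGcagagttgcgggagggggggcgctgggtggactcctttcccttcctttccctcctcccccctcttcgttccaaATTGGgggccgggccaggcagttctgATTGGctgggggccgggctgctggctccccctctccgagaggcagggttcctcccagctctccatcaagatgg
Col3a1: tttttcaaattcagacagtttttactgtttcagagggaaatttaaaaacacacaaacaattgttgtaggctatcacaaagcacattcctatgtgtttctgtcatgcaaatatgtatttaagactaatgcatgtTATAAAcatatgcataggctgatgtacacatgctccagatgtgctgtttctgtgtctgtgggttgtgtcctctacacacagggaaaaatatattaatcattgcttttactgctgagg

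The Col4a5 window held 1 CCAAT and the Col4a6 window 1 GGGCGG on the opposite strand, so the pair shared none of the searched motifs. Col1a1 held 2 CCAAT on the opposite strand and 1 GGGCGG, and Col3a1 held 1 TATAAA. The 44 collagen windows include those of Col10a1 and Col19a1, which both held a TATAAA. Over the 44 collagen windows, 34.1% held a CCAAT, 47.7% a GGGCGG, 15.9% a TATAAA and 2.27% a CArG box, where the 21770 windows of the same length in the annotation had 36.5%, 36.3%, 11.9% and 1.40%. A match is a description of the letters and not a site.

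In the beaded filament class, the 3 chains of the common type VI molecule were lower in KO colon and a related chain was higher. Of 6 genes 5 were tested, and in KO against control colon 3 were lower, 1 was higher and 1 was not called. Col6a1 was the second gene of the family by level per length in control colon, with 809 normalized counts per kb. It had 3263, 3382 and 3312 normalized counts in the control libraries, 1592, 1367 and 1507 in the KO libraries and 4220.4, 2379, 3347, 3370.0 and 2537 in the transferred libraries. The KO libraries were all under the lowest of the other libraries, with a log2 fold change of -1.16 against control (standard error 0.18, adjusted p = 0.000413) and 1.06 in transferred against KO (adjusted p = 0.00088). Transferred and control libraries overlapped, with an interval of -0.45 to 0.25 around -0.10 on the log2 scale.

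Col6a2, which lies 102453 bases from Col6a1 on chromosome 10, had 2840.0, 2738 and 2642 normalized counts in the control libraries, 1414, 1112 and 1459.7 in the KO libraries and 3603, 2022, 2720.1, 2897 and 2182 in the transferred libraries. Its log2 fold change was -1.05 in KO against control (adjusted p = 0.00101) and 0.99 in transferred against KO (adjusted p = 0.00162). Col6a3, the largest chain of the molecule, had 2056, 2308 and 1578 normalized counts in the control libraries, 857, 784 and 958 in the KO libraries and 1559.8, 1704, 1870.1, 1593 and 1370.0 in the transferred libraries. It followed the other two, with -1.18 (adjusted p = 0.00013) and 0.90 (adjusted p = 0.000822) on the log2 scale.

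Col6a4 encodes a chain that can take the place of the Col6a3 chain. It had 354, 318 and 462 normalized counts in the control libraries, 676, 541 and 718 in the KO libraries and 515, 463, 539, 661 and 798 in the transferred libraries. The KO libraries and the transferred libraries were all above the control libraries. It rose in KO colon (log2 fold change 0.78, standard error 0.21, adjusted p = 0.0097) and was not called between transferred and KO (log2 fold change -0.13, 95% confidence interval -0.54 to 0.27), and against control the transferred group had 0.64 (adjusted p = 0.0977, called with DESeq2 and under the rule with a minimum fold change). Its neighbours on chromosome 9 are related chains. Col6a5 had 19.9 to 54.0 normalized counts in control, 8.72 to 31.3 in KO and 14.7 to 44.9 in transferred libraries and was not called (log2 fold change -0.91, standard error 0.54, adjusted p = 0.192), and Col6a6 reached at most 20.9 and had no read in the KO libraries.

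Of the fibril-associated collagens, which lie on the surface of fibres, 3 of 7 tested genes were lower in KO than in control colon and 0 were higher. Col14a1, which binds decorin on type I fibres and is a gene of fibroblasts, had 286, 519.9 and 449.8 normalized counts in the control libraries, 235, 126 and 96.4 in the KO libraries and 525, 326, 408, 428 and 359 in the transferred libraries. It fell in KO colon (log2 fold change -1.51, standard error 0.31, adjusted p = 0.00228) and was higher after the transfer (log2 fold change 1.502, standard error 0.28, adjusted p = 0.00245). Col16a1, the most abundant of the class per length with 123 normalized counts per kb in control colon, had 775, 805 and 521 normalized counts in the control libraries, 350.5, 392 and 353 in the KO libraries and 694, 560.3, 693, 533 and 407 in the transferred libraries. It was lower in KO colon (log2 fold change -0.91, standard error 0.21, adjusted p = 0.00428) and higher after the transfer than in KO colon (log2 fold change 0.63, standard error 0.19, adjusted p = 0.0243), the latter not without any 1 KO library or transferred replicate 3 (adjusted p = 0.0527 to 0.0804).

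Col9a2, a chain of the cartilage collagen type IX, had 133, 129 and 60.6 normalized counts in the control libraries, 20.6, 5.81 and 8.76 in the KO libraries and 42.9, 75.4, 62.9, 28.6 and 43.8 in the transferred libraries. Its log2 fold change was -3.18 in KO against control (adjusted p = 0.000323) and 2.12 in transferred against KO (adjusted p = 0.00366). Its partner chain Col9a3 was not called, with 24.3 to 41.4 normalized counts in control and 27.4 to 51.3 in KO libraries, and Col9a1 reached at most 6.67. Col12a1, a relative of Col14a1 at fibre surfaces, had 412 to 639.6 in control, 273 to 509.6 in KO and 394 to 491 in transferred libraries and was not called (log2 fold change -0.47, standard error 0.22, adjusted p = 0.103), but was lower without control replicate 3 or KO replicate 3 (adjusted p = 0.0347 and 0.0388). Col20a1 and Col22a1 were not called, with log2 fold changes of -0.82 (adjusted p = 0.0762) and 0.68 (adjusted p = 0.234), and Col20a1 was called as lower in 6 of the 22 alternatives, among them without control replicate 3 or transferred replicate 5 (adjusted p = 0.0475 and 0.0214).

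The multiplexins, collagens of basement membrane zones that carry sugar chains, had fold changes of opposite sign, of which 1 was called. Col18a1, whose end fragment is endostatin and which lies in the basement membranes of epithelium and vessels, had 967, 928 and 859 normalized counts in the control libraries, 1268, 1377 and 1412 in the KO libraries and 1132, 662, 888, 857 and 768 in the transferred libraries. All KO libraries were above all other libraries. It rose in KO colon (log2 fold change 0.56, standard error 0.16, adjusted p = 0.0137) and was lower after the transfer (log2 fold change -0.67, standard error 0.14, adjusted p = 0.00499), the only collagen gene called lower in that comparison. Col15a1, its relative in the basement membranes of muscle and vessels, had 519, 533 and 526 normalized counts in the control libraries, 365, 414 and 425 in the KO libraries and 717, 354, 435, 540.2 and 361 in the transferred libraries. Its KO libraries were all below its control libraries, without a call (log2 fold change -0.39, standard error 0.22, adjusted p = 0.173), but it was called as lower in the fit of only these 2 groups (adjusted p = 0.0211). The length-corrected ratio of Col18a1 to Col15a1, chosen after the values were seen and not tested, was 1.92, 1.79 and 1.68 in control, 3.58, 3.43 and 3.42 in KO and 1.62, 1.93, 2.10, 1.63 and 2.19 in transferred libraries.

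Col8a2, a short chain of vessel walls and of the cornea, had 111, 175 and 132 normalized counts in the control libraries, 16.6, 37.8 and 5.48 in the KO libraries and 44.7, 54.3, 56.01, 16.2 and 93.1 in the transferred libraries. It fell in KO colon (log2 fold change -3.07, standard error 0.65, adjusted p = 0.00263) and was not called after the transfer against either group, with 1.52 against KO (adjusted p = 0.0649) and -1.55 against control (adjusted p = 0.181). Without KO replicate 3 or transferred replicate 4 it was higher after the transfer than in KO colon (adjusted p = 0.0279 and 0.0172), and with the replicate number as a block it was higher than in KO (adjusted p = 0.0179) and lower than in control colon (adjusted p = 0.0302). Its partner Col8a1 varied widely within groups, from 62.8 to 190.3 normalized counts in control and 32.0 to 159.6 in KO to 38.3 to 373 in transferred libraries, and was not called (log2 fold change -0.60, 95% confidence interval -2.38 to 1.17).

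Col7a1, the chain of the anchoring fibrils that fasten epithelium to the tissue below, had 124, 102 and 89.3 normalized counts in the control libraries, 42.1, 64.9 and 75.6 in the KO libraries and 85.8, 96.6, 122, 58.1 and 60.2 in the transferred libraries. Its call as lower in KO colon was marginal (log2 fold change -0.81, standard error 0.31, adjusted p = 0.048) and was lost in 12 of the 22 alternatives, among them without any 1 control library, KO replicate 1 or 3 or transferred replicate 1 or 2 (adjusted p = 0.0557 to 0.169). Among the collagens that span the cell membrane, Col23a1 had 363, 403 and 149.9 normalized counts in the control libraries, 61.7, 41.7 and 76.7 in the KO libraries and 263, 307, 241, 186 and 198 in the transferred libraries. It fell in KO colon (log2 fold change -2.25, standard error 0.35, adjusted p = 0.000439) and was higher after the transfer (log2 fold change 1.99, standard error 0.31, adjusted p = 0.00107).

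Col25a1, a membrane collagen of neurons and developing muscle, had 23.2 to 45.7 normalized counts in control, 9.69 to 15.7 in KO and 17.3 to 41.2 in transferred libraries, and was lower in KO colon (log2 fold change -1.51, standard error 0.38, adjusted p = 0.00698) and higher after the transfer (log2 fold change 1.02, standard error 0.34, adjusted p = 0.0394). The call after the transfer was lost in 7 of the 22 alternatives, among them without KO replicate 3 or 4 or transferred replicate 2, 4 or 5 (adjusted p = 0.0559 to 0.142). Col13a1, a membrane collagen of cell junctions and of the nerve-muscle contact, had 70.6, 60.6 and 75.0 normalized counts in the control libraries, 55.8, 48.4 and 38.3 in the KO libraries and 59.3, 30.2, 56.01, 42.9 and 41.6 in the transferred libraries. It had no adjusted p under 0.05 in any comparison with limma, with -0.53 in KO and -0.60 in transferred colon against control on the log2 scale. The rule with a minimum fold change, applied to the same fit, called it lower in the latter comparison. Col17a1, which anchors skin cells, reached at most 14.9 normalized counts. Col28a1, a collagen of peripheral nerve, had 59.3, 88.5 and 46.3 normalized counts in the control libraries, 21.5, 29.1 and 26.3 in the KO libraries and 50.2, 77.5, 43.2, 65.7 and 58.0 in the transferred libraries, with log2 fold changes of -1.26 in KO against control (adjusted p = 0.00373) and 1.15 in transferred against KO (adjusted p = 0.00589). Col26a1 reached at most 7.67.

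**Figure D3:**
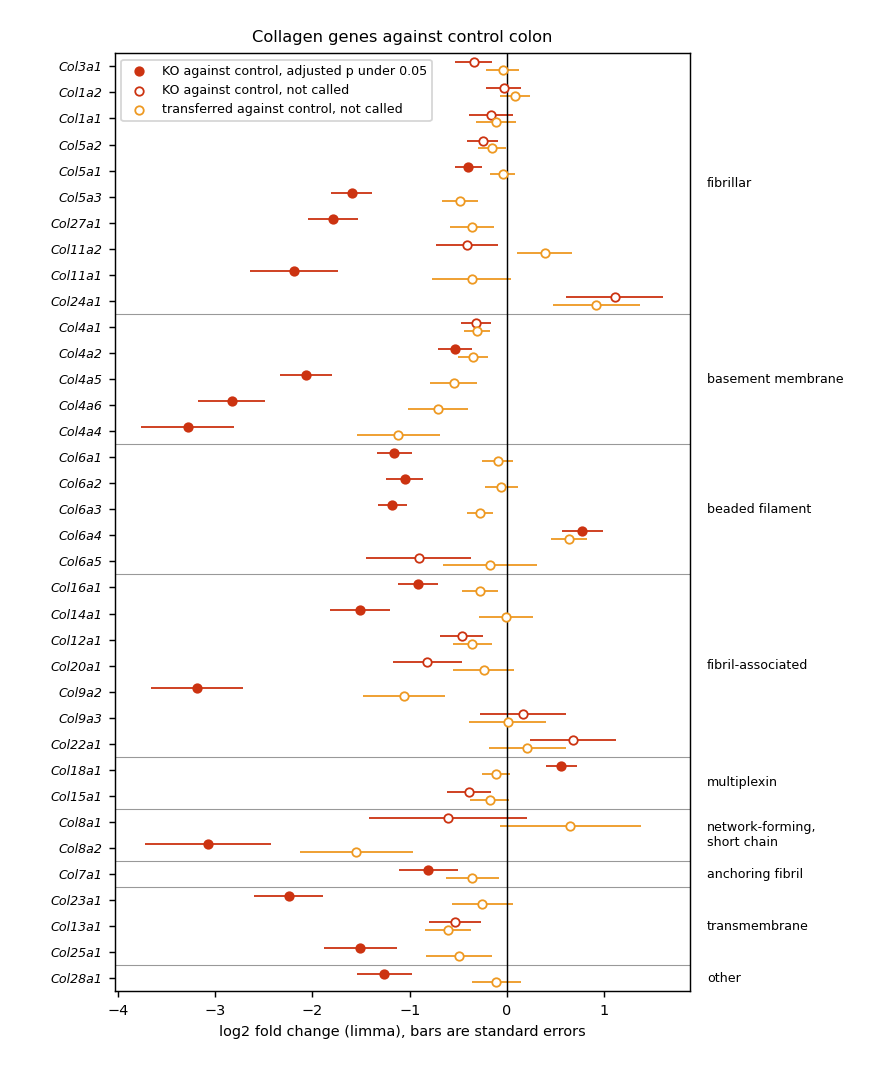
The x axis is the log2 fold change from limma with its standard error for each tested collagen gene, for KO against control (red) and transferred against control (orange), which share the control libraries. Filled points have an adjusted p under 0.05, as 21 red points do, and all orange points are open, and the red points furthest left are those of Col9a2, Col8a2, Col4a6 and the scarce Col4a4, which was tested only because of its control libraries.

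All collagen genes together took 0.201, 0.204 and 0.171% of the normalized counts in the control libraries, 0.142, 0.141 and 0.123% in the KO libraries and 0.242, 0.15, 0.196, 0.196 and 0.133% in the transferred libraries. Each KO library was below each control library. On the log2 scale the mean share was -0.50 in KO relative to control colon, with p = 0.1 in a two-sided exact permutation test, the smallest value that 3 against 3 libraries can give, and 0.214 after adjustment over 3 comparisons. Transferred colon had 0.41 relative to KO (exact permutation p = 0.143, adjusted 0.214) and -0.10 relative to control (exact permutation p = 0.679). Transferred libraries spread from below the highest KO library to above all control libraries.

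Within the family the share of each class was compared, and no difference passed the threshold after adjustment. After division by transcript length, the fibrillar class held 42.5 ± 1.97% of the collagen sum in control (SD, n = 3), 49.4 ± 0.864% in KO (SD, n = 3) and 45.0 ± 1.66% in transferred libraries (SD, n = 5). The beaded filament class held 25.6, 24.4 and 25.6% in control, 18.4, 15.6 and 19.6% in KO and 26.1, 25.0, 25.7, 26.4 and 27.6% in transferred libraries, so that its KO libraries lay under all others. The multiplexins held 4.35, 3.98 and 4.19% in control, 6.55, 7.28 and 7.83% in KO and 4.54, 3.83, 3.88, 4.14 and 4.43% in transferred libraries, with the KO libraries above all others.

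The basement membrane class held 20.2 ± 0.677% in control (SD, n = 3), 20.3 ± 2.39% in KO (SD, n = 3) and 17.4 ± 1.32% in transferred colon (SD, n = 5), and KO and control libraries overlapped. The fibril-associated class held 4.27 to 5.63% in control, 3.22 to 3.89% in KO and 4.11 to 5.35% in transferred libraries, and the remaining types 2.07 to 3.22%, 1.27 to 1.81% and 2.26 to 3.56%. Shares of a whole move against each other, so a higher share of a class does not say that its RNA rose.

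Among chains that are built into 1 molecule, the length-corrected ratio of Col4a1 to Col4a2 was 1.15, 1.21 and 1.25 in control, 1.44, 1.37 and 1.39 in KO and 1.18, 1.29, 1.18, 1.28 and 1.26 in transferred libraries, and the KO libraries lay above all others. The ratio of Col1a1 to Col1a2 was 0.662 to 0.699 in control, 0.525 to 0.733 in KO and 0.561 to 0.632 in transferred libraries, and that of Col6a1 to Col6a2 was 1.67 to 1.83, 1.503 to 1.79 and 1.69 to 1.79. Col3a1 to Col1a1 was 2.72 to 2.94, 1.90 to 3.02 and 2.45 to 3.36, and Col5a1 to Col1a1 was 0.273 to 0.313, 0.213 to 0.304 and 0.256 to 0.352.

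These 11 shares and ratios were compared with two-sided exact permutation tests. Between KO and control the fibrillar, beaded filament, fibril-associated, multiplexin and remaining shares and the Col4a1 to Col4a2 ratio had an exact permutation p = 0.1, the smallest that 3 against 3 libraries allow, and 0.183 adjusted over the 11. The same 6 measures had an exact permutation p = 0.0357 between transferred and KO colon, the smallest that 5 against 3 allow, and 0.0655 adjusted. Between transferred and control colon the smallest p was also 0.0357, for the basement membrane share and the Col1a1 to Col1a2 ratio, and 0.196 adjusted. No measure passed the threshold after adjustment, and between KO and control none could.

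**Figure D4:**
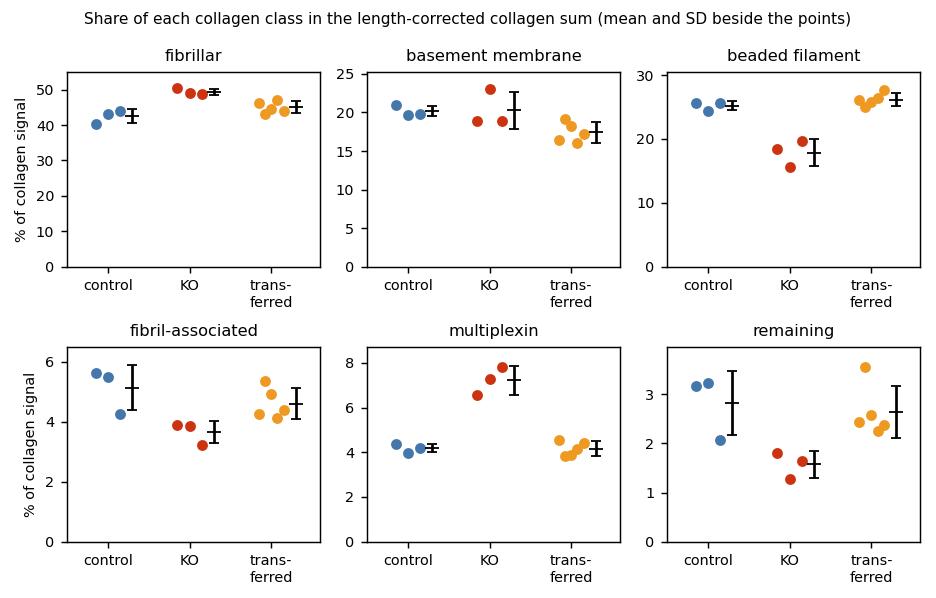
Share of each collagen class in the length-corrected sum of the family, in percent on linear axes from 0, for each library (points) with the group mean and SD beside the points. The KO points lie under all others for the beaded filament class (15.6 to 19.6%) and above all others for the multiplexins (6.55 to 7.83%), while those of the basement membrane class overlap with control.

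The genes that make, trim, bind and break down collagen were taken from lists drawn up from general knowledge, with earlier results of these data known. Their counts in KO against control colon stand beside the 22.9% of all tested genes called lower and the 22.7% called higher. Of 19 genes for the modification and folding of chains, 10 were lower and 3 higher in KO than in control colon. The lower genes included P3h2 (log2 fold change -2.04), P3h4 (-1.60) and P4ha3 (-1.79), which belong to the proline and lysine hydroxylation machinery, and Serpinh1 (-0.97), the collagen chaperone HSP47. Serpinh1 had 2750.3 ± 169 normalized counts in control (SD, n = 3), 1405 ± 161 in KO (SD, n = 3) and 2527 ± 521 in transferred colon (SD, n = 5).

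Of 12 tested genes for propeptide removal and cross-linking, 7 were lower and 1, the cross-linking enzyme Lox, was higher. The log2 fold change was -3.29 for Pcolce2, an enhancer of propeptide cleavage, and -1.07, -2.01 and -1.11 for the proteinases Bmp1, Mep1a and Mep1b. Mep1a and Mep1b are best known as brush border enzymes of the gut epithelium. Of 12 proteoglycans and other fibre partners, 8 were lower and 0 higher, among them Tnxb (tenascin X) with -3.05, Ogn with -2.03, Prelp with -1.89 and Dpt with -1.56. Dpt is also on the fibroblast marker list.

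Of 16 partners in the basement membrane, 11 were lower and 3 higher in KO colon. Lamb2 (log2 fold change -1.64), a laminin chain of muscle and vessels, and Pxdn (-0.95), the peroxidase that cross-links type IV collagen, were lower. The laminin chains Lama1 (2.19) and Lama3 (1.28) were among the higher genes. Of 10 collagen receptors 3 were lower and 2 higher. Both shares lie near those of all tested genes. The receptor kinase Ddr2 had -1.39 and the integrin chain Itga1 -1.02, whereas the integrin chain Itga2, used by epithelium, had 1.84 and Lair1, a receptor of immune cells, 2.02.

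Of 11 tested genes for collagen breakdown 6 were higher and 2 lower in KO colon. The stromelysin Mmp10 reached the limit for testing only through the KO libraries, and without it 5 of 10 were higher and 2 lower (median log2 fold change 0.64). Another stromelysin, Mmp3, had 4.36 on the log2 scale (standard error 0.74, adjusted p = 0.000745). The collagenase Mmp13 had 3.53 (adjusted p = 0.000445) and the membrane-bound Mmp14 1.10 (adjusted p = 0.000445). Mmp10 had 2.03 ± 0.164 normalized counts in control (SD, n = 3) and 926 ± 946 in KO colon (SD, n = 3), where the spread between libraries was as large as the mean. In transferred against KO colon 1 of the 10 other genes was higher and 5 were lower.

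After the transfer, 8 modification genes, 7 propeptide and cross-linking genes, 8 fibre partners, 10 basement membrane partners and 3 receptors were higher than in KO colon, and 1, 1, 0, 3 and 1 were lower, beside 17.0% of all tested genes called higher and 14.2% called lower. Against control, where 1.6% of all tested genes were called, 0 of the 80 tested genes of the 6 lists were called in transferred colon with limma (16 at an unadjusted p under 0.05), 0 with edgeR (17) and 5 with DESeq2 (19). Among the genes not called with limma, its log2 fold change was -0.60 for Tnxb (limma adjusted p = 0.114) and 1.05 for Lair1 (limma adjusted p = 0.1).

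Markers of several cell types also differed between KO and control colon, and their counts stand beside the same 22.9% of all tested genes called lower and 22.7% called higher. All 16 smooth muscle markers were lower in KO than in control colon (median log2 fold change -2.59), with a summed level of 238043 to 299036 normalized counts in control, 34477 to 50420.1 in KO and 104079 to 168258 in transferred libraries. The neuron and glia list had 14 of 15 lower (2980.1 to 5327 in control, 589 to 1269 in KO and 1756 to 3425 in transferred libraries). The fat cell list had 11 of 11 lower (6937 to 18546 in control, 3213 to 4457 in KO, 7478 to 13348 in transferred). The study's methods state the removal of fat for histology and for cell isolation, and do not state it for the RNA samples. Of 11 endothelial markers 4 were lower (3253 to 3840.0, 2476 to 2937 and 2801 to 3654), and of 10 fibroblast markers 4 were lower and 1 was higher (14588 to 21483, 11981 to 15948 and 13124 to 20278). Of 6 tested mesothelial markers 2 were lower, and their sum, which lay mostly in the keratin Krt19 that epithelium also expresses, was 41127 to 54362 in control, 53861 to 72664 in KO and 50473 to 62276 in transferred libraries.

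All 12 immune cell markers were higher in KO colon, or 10 of 10 without Ly6g and S100a8, which reached the limit for testing only through the KO libraries. The sum of all 12, with Ly6g and S100a8 included, was 999 to 1133 in control, 5013 to 7168 in KO and 1351 to 3262 in transferred libraries. Of 13 colon epithelium markers 3, or 23.1%, were lower, a share near that of all tested genes, and 0 were higher (836342 to 927039.5, 647407 to 716804 and 769222 to 989091). Of 11 squamous and 8 cartilage and bone markers, 6 each were not tested, among them the cartilage gene Acan and the squamous gene Krt13. Of the 5 tested squamous markers 3 were lower, or 3 of 4 without Krt5, which reached the limit for testing only through the KO libraries. The squamous list summed to 264 to 310.2 normalized counts in control, 136 to 184 in KO and 212 to 274 in transferred libraries, and the cartilage and bone list to 363 to 398, 471 to 792 and 315 to 793. The latter sum lay mostly in Sox9, a factor also of the gut epithelium. Sox9 averaged 356 normalized counts in control and 633 in KO colon and was called as higher. Comp, the other tested gene, was not called (log2 fold change -1.11). In transferred against control colon, 7 smooth muscle markers were lower and 4 immune markers higher, or 3 without Ly6g and S100a8 (0.453% and 1.14% of all tested genes), and 0 of the neuron, fat, endothelial, fibroblast, mesothelial and epithelial markers were called with limma (12 of 66 at an unadjusted p under 0.05) or edgeR (14), and 2 with DESeq2 (14). The part of these lists in the collagen values was not tested.

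In each library 4 further length-corrected ratios were taken. The length-corrected ratio of Col6a1 to Col1a1 was 2.08, 1.90 and 1.94 in control, 1.04, 0.766 and 1.21 in KO and 1.91, 2.13, 1.80, 2.09 and 2.07 in transferred libraries. The ratio of Col4a5 to Col4a1 was 0.0852, 0.0894 and 0.0767 in control, 0.0281, 0.0129 and 0.0414 in KO and 0.0518, 0.0924, 0.0609, 0.0596 and 0.1 in transferred libraries. That of Col4a6 to Col4a1 was 0.0547 to 0.0862, 0.00584 to 0.0236 and 0.0415 to 0.0798, and that of Col6a4 to Col6a1 0.0523 to 0.0775, 0.22 to 0.265 and 0.0678 to 0.175. The KO libraries lay apart from all other libraries in each of these, which were chosen after the values were seen and not tested.

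Of the neighbouring collagen genes, Col4a5 and Col4a6 had log2 fold changes of -2.07 and -2.83 in KO against control colon, Col6a1 and Col6a2 -1.16 and -1.05, Col4a1 and Col4a2 -0.32 and -0.54, and Col3a1 and Col5a2, 191744 bases apart on chromosome 1, -0.34 and -0.25. Col6a4 and Col6a5, 136132 bases apart, had 0.78 and -0.91, of which Col6a4 passed the test. The annotated 5′ ends of Col4a1 and Col4a2 overlap on opposite strands. How reads there were counted depends on the strand setting, which the sources used here do not give.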

How the data were processed

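RNA of 1 piece of frozen whole colon per library was sequenced in 3 control, 3 KO and 5 transferred samples. The authors aligned reads to GRCm39, counted them per gene and divided the counts of a library by 1 factor, which gave the deposited signal values, called normalized counts here. HISAT2 (2.2.1), SAMtools (1.13), HTSeq (1.99.2) and DESeq2 (1.40.2) stand in the submitters' processing notes, and the paper names HISAT2 or STAR. Annotation release and strand setting: not given in the sources used here. All values (100%) were whole multiples of 1 step per library within 0.05, which gave back the reads for edgeR (4.0.16) and DESeq2 (1.42.0) as alternatives.

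Groups were compared with limma (3.58.1, R 4.3.3), a variance trend and 1 fit of all 3 groups on log2(normalized count + 1), for genes averaging 10 or more normalized counts, so fold changes of low genes are understated. Calls had a Benjamini-Hochberg adjusted p under 0.05 over all 16781 genes. Shares and ratios were compared with exact permutation tests (Python 3.11.15, SciPy 1.17.1) after division by the length of the Ensembl canonical transcript. GENCODE M39 held 99.2% of the gene identifiers. The members and lists were chosen with earlier results of these data known. Named were, per class, up to 6 tested genes with the smallest adjusted p, the most abundant 1 per length, genes called between transferred and control, and up to 4 genes of each pathway list. Lama3 and Lox were named after their values were seen, and 1 gene that the rule names is not reported here.

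Alternatives were pseudocounts of 0.5 and 10, a limit of 50 or none, TMM scaling, edgeR, DESeq2, the replicate number as a block, a fit without the third group, a fit without the variance trend, the study's rule (unadjusted p under 0.05 and an absolute log2 fold change over 0.6), each library left out, other sets and lengths for the shares. The study's rule was applied to the p-values and fold changes of the limma fit, whereas the paper used DESeq2. The fits were tested on simulated data. Every pair within a group differed by far more than sampling noise, so all libraries counted as samples.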

Additional observations from a re-analysis of the deposited data

Results flagged for a closer look

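In the group of 5 transferred libraries, 4 of 54 values examined had 1 library far from the other 4, by a gap of over 0.71 of the group's range, which chance gives for about 1 in 20 such groups. Col5a3 had a gap of 0.718 of the range, with 332 normalized counts in transferred replicate 5 and 493 to 556 in the others. Col12a1 had a gap of 0.752, with 491 in transferred replicate 2 and 394 to 418 in the others. The ratio of Col6a1 to Col6a2 had a gap of 0.799, with 1.79 in transferred replicate 3 and 1.69 to 1.71 in the others. The share of the remaining collagen types had a gap of 0.746, with 3.56% in transferred replicate 2 and 2.26 to 2.59% in the others.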

How the results depend on the processing

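Between KO and control colon, the alternatives called 2 or 3 collagen genes higher and 15 to 22 lower, and between transferred and KO colon 12 to 19 higher and 1 lower. Leaving out 1 library gave 2 to 3 higher and 16 to 20 lower, and 13 to 18 higher and 1 lower. Col7a1, Col5a1, Col4a2 and Col18a1 lost their call between KO and control in 12, 9, 5 and 1 of 22 alternatives. With the reads recovered, edgeR called 2 higher and 18 lower and DESeq2 2 and 20 between KO and control, and 17 and 18 higher and 1 lower each between transferred and KO. Genes with low counts left the test at a mean of at least 50. Between transferred and control colon, where 0 were called, DESeq2 gave 1 higher, and 0 were called without any 1 library. The study's rule, applied to the limma fit, gave 1 higher (Col6a4) and 5 lower (Col4a4, Col4a6, Col8a2, Col9a2 and Col13a1).

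The 8 pairs of libraries with the same number correlated at -0.10 to 0.39 (median 0.06) in their deviations from the group means. The 31 other pairs had -0.40 to 0.28 (median -0.04). The highest value was that of control and transferred replicate 1, but not every library correlated best with its own number. With so few libraries these correlations cannot decide whether the numbers pair the samples, and the main fits treat the samples as unpaired. With the replicate number as a block, 2 genes were higher and 19 lower between KO and control, 19 and 1 between transferred and KO, and 0 and 1 (Col8a2) between transferred and control.

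Small differences changed sign. Leaving out 1 library gave log2 fold changes of -1.09 to 0.0547 for Col8a1 and -0.12 to 0.384 for Col9a3 between KO and control, and of -0.0901 to 0.172 for Col1a1 and -0.0727 to 0.12 for Col4a1 between transferred and KO. The share of all collagens ranged from -0.203 to 0.0134 (log2) between transferred and control. The basement membrane share ranged from -1.26 to 0.834 percentage points between KO and control and was -0.0733 with values not divided by length. The ratio of Col3a1 to Col1a1 ranged from -0.533 to 0.0306 between KO and control, and Col1a1 to Col1a2 from -0.0825 to 0.0212 between transferred and KO. The multiplexin share between transferred and control ranged from -0.107 to 0.0768, with 0.0134 for values not divided by length and 0.0753 with the length of all annotated exons, a setting chosen after the data were seen, and the share of the remaining types from -0.551 to 0.0238. The cause of these changes was not tested. Mean counts of under 50 limit Col4a4, Col6a5, Col9a3, Col11a1, Col24a1, Col22a1 and Col25a1.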
